A study of Mus musculus with 4 samples.

Results

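The cytochrome P450 genes described here are those whose symbol is Cyp followed by a digit, leaving out pseudogene symbols and the vitamin D genes Cyp24a1 and Cyp27b1, with 20 or more raw unique molecular identifiers (UMIs, counted RNA molecules) over 4 single-cell libraries of mouse kidney. There were 52 such members among 99 genes that matched the symbol rule, and 17505 of all 31053 listed genes reached the same minimum. A further 24 matching genes had 1 to 19 UMIs and 23 had none. Just inside the limit were Cyp4x1 with 22 UMIs and Cyp4a32 with 29, and just outside it were Cyp2d40 with 19, Cyp2d34 with 16 and Cyp3a57 with 14. All 4 libraries came from C57BL/6J mice (genotype C57BL/6 in the labels) aged 10 weeks, and each pooled kidneys of a male and female pair. Mice had 1 intraperitoneal injection of rhFGF23 (recombinant human FGF23, a phosphate-regulating hormone) at 10 µg per mouse and were killed at 1, 4 or 12 h. The group labelled 0 h had a dose of 0 µg, and the labels call it baseline while its deposited data name a saline sample at 1 h, so the labels do not say if these mice had an injection. Each group is 1 library, so no difference over time has a replicate check and no p-value is given.

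P450s are heme enzymes that sit mostly in the endoplasmic reticulum and use electrons from P450 reductase to insert oxygen into lipids, steroids and foreign compounds. The proximal tubule is the main site of P450 expression in the kidney: Cyp4a and Cyp4b enzymes hydroxylate fatty acids, Cyp2c and Cyp2j enzymes make epoxides from arachidonic acid, and Cyp2a, Cyp2d and Cyp2e1 oxidise many drugs and solvents. Several rodent P450s are known for sex-dependent expression in kidney and liver, set by androgens and growth hormone. Cyp7b1 hydroxylates oxysterols and steroids, Cyp51 removes a methyl group from lanosterol in cholesterol synthesis, and Cyp26 enzymes break down retinoic acid.

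The deposited matrices held 12245 to 13813 barcodes and 139675666 to 158838728 UMIs per library, and 8758 to 10131 cells per library remained after filtering. Pairs of libraries shared 36 to 57 barcodes. Proximal tubule-like (PT-like) cells numbered 6147 to 7201 per library and divided into PT-S1-like, PT-S2/S3-like and PT-S3-like segments plus a remainder. In PT-like cells the 7 proximal tubule markers summed to 10742 to 12165 CPM (the UMIs of a gene over all UMIs of the class and library, scaled to a fixed total). The S1 transporter gene Slc5a2 was at 773 CPM in PT-S1-like and 5.55 CPM in PT-S3-like cells (pooled). No podocyte-like class was found, and the 5 podocyte markers summed to at most 0.434 CPM in PT-like cells. Clusters were made without P450 genes and without sex-biased genes. The make-up of PT-like cells moved with time: the female share of sex-called cells was 36.7%, 40.2%, 45.5% and 44.1% at 0, 1, 4 and 12 h, the share of barcodes with at least 2000 CPM of the nuclear RNA Malat1 was 66.7%, 65.0%, 61.3% and 56.2%, and PT-S3-like cells numbered 301, 149, 265 and 191. Summed erythroid markers in PT-like cells were at 4.59, 0.134, 3.67 and 178 CPM, so the 12 h library stood apart, and neutrophil markers were at 12.2, 7.79, 2.27 and 1.38 CPM, highest at 0 h. None of either list was at 0. The part of these shifts in the results below was tested only where values by segment, by called sex or by Malat1 level are given.

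P450 RNA was concentrated in the proximal tubule. The 52 members together made up 0.417%, 0.410%, 0.385% and 0.386% of PT-like UMIs at 0, 1, 4 and 12 h. PT-S2/S3-like cells had the largest shares of the 3 segments, 0.531%, 0.529%, 0.520% and 0.514%, while those of PT-S1-like cells were 0.172% to 0.191% and those of PT-S3-like cells 0.302% to 0.340%. Endothelial-like cells reached 0.0716% to 0.108%, and thick ascending limb-like (TAL-like) cells 0.0300% to 0.0393%. Stromal-like cells ranged from 0.0338% to 0.122% and neutrophil-like cells from 0.0610% to 0.102%. With the 4 libraries summed, the highest class was a proximal segment for 26 members: PT-S1-like for 6, PT-S2/S3-like for 10 and PT-S3-like for 10. Endothelial-like, intercalated cell-like (IC-like) and urothelial-like cells were the highest class for 5 members each, and macrophage-like cells for 4. These counts set no UMI minimum within the class, and some rest on very few UMIs. Examples are Cyp4a32 (PT-S3-like, 1 UMI), Cyp2j8 (IC-like, 2), Cyp4x1 (urothelial-like, 4) and Cyp26a1 (endothelial-like, 8).

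**Figure D1:**
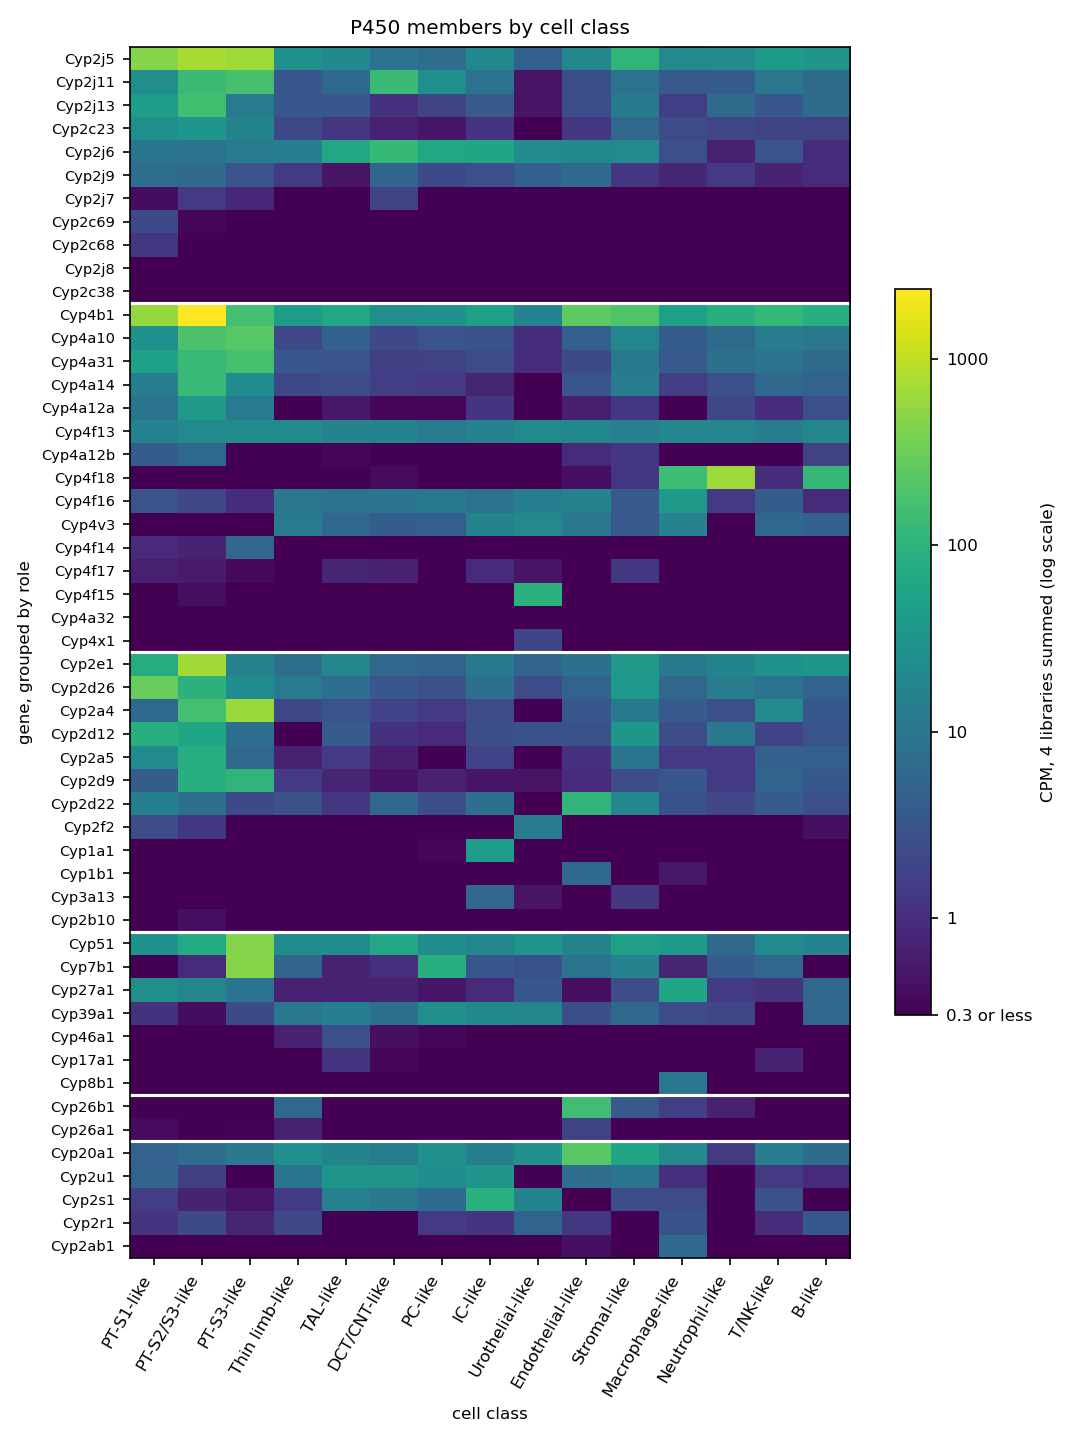
Level of each of the 52 P450 members (rows, grouped by role) in 15 cell classes (columns), as CPM of the 4 libraries summed on a log colour scale, with levels of 0.3 CPM or less in the darkest colour. The brightest cell is Cyp4b1 in PT-S2/S3-like cells at 2361 CPM, and Cyp4f18, Cyp26b1, Cyp1a1 and Cyp4f15 stand out in neutrophil-like, endothelial-like, IC-like and urothelial-like columns.

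Among the 36 members with 100 or more UMIs in PT-like cells, the segment with the highest pooled level was PT-S1-like for 13, PT-S2/S3-like for 11 and PT-S3-like for 12. These segment levels are a description, since a cluster set against other clusters is no test. The spread over the 4 libraries is given as mean ± SD of log2 ratios (n = 4 libraries, which differ in time after injection).

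**Figure D2:**
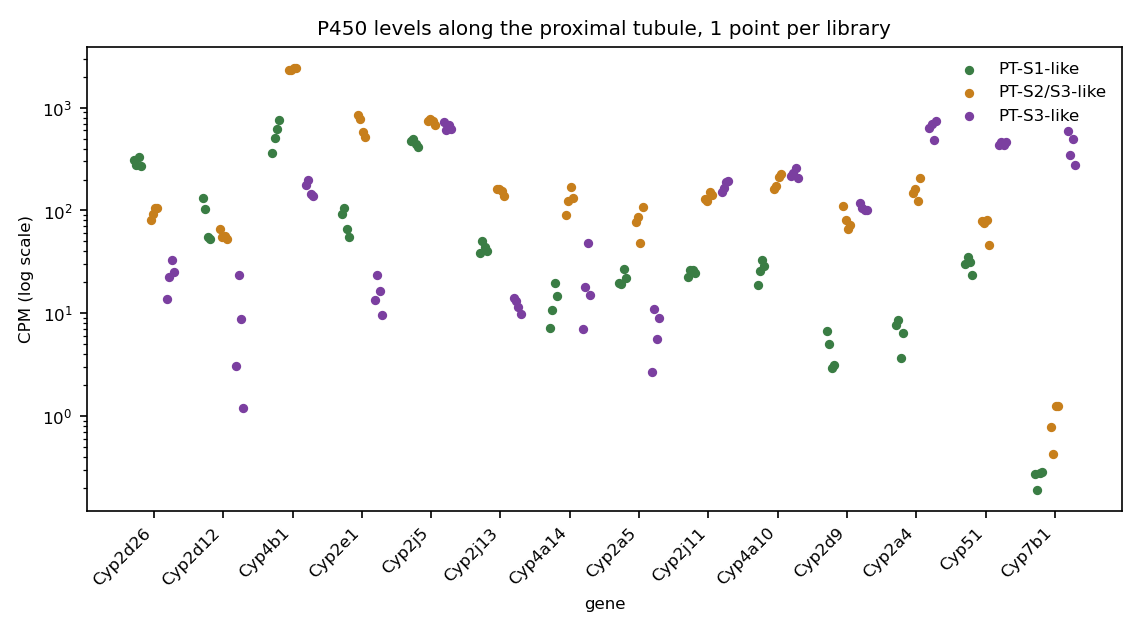
CPM (log axis) of 14 P450 genes in PT-S1-like, PT-S2/S3-like and PT-S3-like cells, with 1 point per library. Cyp7b1 lies above 200 CPM in PT-S3-like cells and under 2 CPM in both other segments, while Cyp2d26 and Cyp2d12 are highest in PT-S1-like cells in most libraries.

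Differences over time were counted as 2-fold or larger against 0 h, for genes with 100 or more UMIs over the 4 libraries in the class. In PT-like cells 1 of 36 members was 2-fold lower at 1 h (Cyp7b1) and none was 2-fold higher, where 0.667% and 0.498% of 12440 genes were. At 4 h Cyp2s1 was higher and none lower, where 2.09% of all genes were higher and 1.52% lower. At 12 h Cyp2s1 and Cyp26a1 were higher and Cyp7b1 and Cyp4a12a lower, where 1.82% and 1.84% of all genes were. Members therefore numbered 0 to 2 per time and direction. The median log2 ratio over members was 0.01, -0.19 and 0.02 at 1, 4 and 12 h, beside 0.01, 0.05 and 0.03 over all genes tested.

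More members passed 2-fold within single segments. In PT-S1-like cells, 3 of 31 members were higher at 4 h (Cyp4a12b, Cyp4a14 and Cyp2s1) and 5 lower (Cyp2a4, Cyp2f2, Cyp2d9, Cyp2d12 and Cyp2c69), where 2.16% and 1.58% of 11135 genes were. At 12 h, 3 were higher (Cyp4a14, Cyp4b1 and Cyp2s1) and 3 lower (Cyp4a12a, Cyp2d9 and Cyp2d12), against 1.44% and 1.05% of all genes. At 1 h none of the 31 passed, with 0.7% of all genes higher and 0.395% lower. Cyp2a4 and Cyp2d9 were low in sex-called cells of clusters 0 and 10 of this segment. With libraries pooled they were at 0.90 to 1.44 and 0.85 to 1.90 CPM there, beside 6.37 and 4.27 CPM in the whole segment. Whether their ratios over time held within single clusters was not tested. In PT-S2/S3-like cells none of 32 members passed at 1 h (0.441% of all genes higher and 0.441% lower) or at 4 h (1.76% and 1.58%), while at 12 h Cyp2s1 was higher and Cyp4a12a lower, where 1.79% and 1.74% of 11564 genes were. In PT-S3-like cells, the segment with the fewest cells, 3 of 21 members were higher (Cyp4a14, Cyp2a5 and Cyp2d12) and 1 lower (Cyp4a12a) at 1 h, against 0.653% and 0.47% of 7654 genes. At 4 h 4 were higher (the same 3 and Cyp2d26) and none lower (all genes 1.5% and 1.1%). At 12 h Cyp4a14 and Cyp2a5 were higher and Cyp7b1, Cyp4a12a and Cyp2d12 lower (1.37% and 1.59%). The 3 S2 markers summed to 73.4, 195, 199 and 229 CPM in PT-S3-like cells at 0, 1, 4 and 12 h. The members called higher there were all lower in PT-S3-like than in PT-S2/S3-like cells, by mean log2 ratios of -2.10 to -3.63. The part of this marker shift in the PT-S3-like calls was not tested. The signs of several PT-S3-like calls depended on the processing. With a mitochondrial limit of 25% Cyp4a14 at 1 h was at -1.21, and Cyp2d12 was at -0.038, -3.01 and 3.25 at 1, 4 and 12 h.

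Many members differed between cells called male and female within each pooled library. Cells were called by Xist against 4 Y-linked genes, and only barcodes with at least 2000 CPM of Malat1 were used. In PT-S2/S3-like cells, 8 of 32 members were 2-fold or more higher in male-called cells in each of the 4 libraries, where 2.63% of 11264 genes were. A further 6 were as much higher in female-called cells, where 3.91% of all genes were. In PT-S1-like cells 7 and 2 of 29 members were, against 0.688% and 0.353% of 10758 genes, and in PT-S3-like cells 5 and 1 of 15, against 1.44% and 2.55% of 6188 genes. The PT-S1-like count did not hold for 2 of its 7 genes within single clusters. In clusters 0 and 10 of that segment the log2 ratio of male to female was 0.17 and -0.60 for Cyp2a4 and 0.96 and 0.94 for Cyp2d9, against 2.55 ± 0.80 and 2.71 ± 1.15 (SD, n = 4 libraries) in the whole segment. Where a library holds 1 animal of each sex, a difference between sexes and one between animals cannot be told apart within it.

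**Figure D3:**
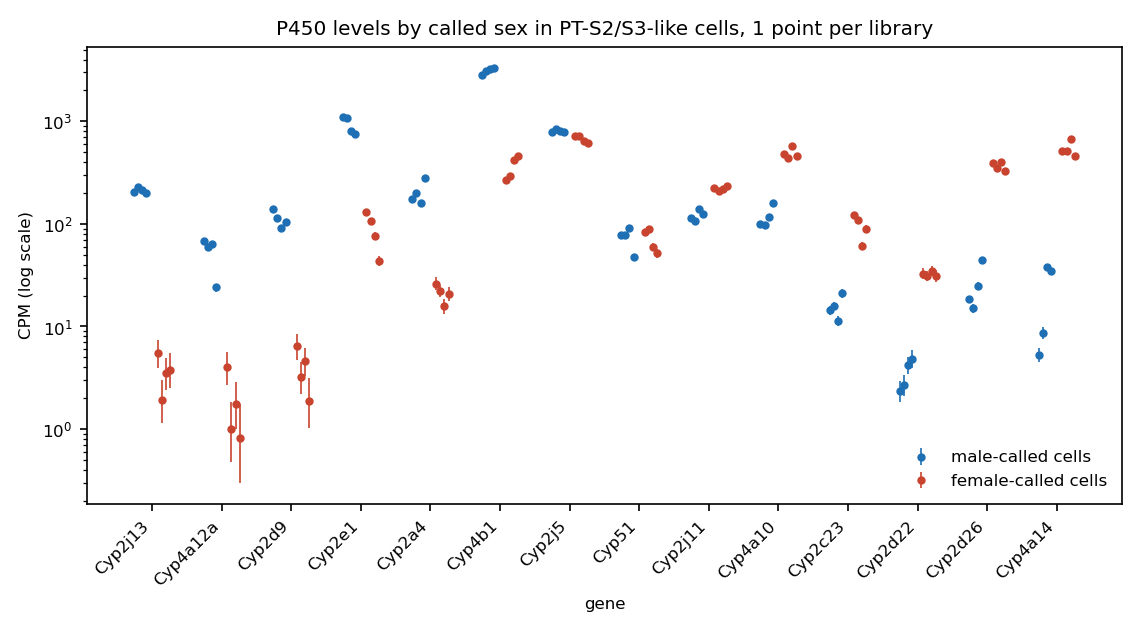
CPM (log axis) of 14 P450 genes in male-called and female-called PT-S2/S3-like cells, with 1 point per library in the order 0, 1, 4 and 12 h and bars for exact Poisson 95% intervals. Male-called points lie above female-called ones for the first 6 genes, from Cyp2j13 to Cyp4b1, and below them for the last 6, from Cyp2j11 to Cyp4a14, while Cyp2j5 and Cyp51 lie close together.

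The 15 fatty acid hydroxylase members of the Cyp4 family held the most UMIs, 880454 of all member counts. Cyp4b1, a hydroxylase that in rabbit and rodent tissue activates furans and aromatic amines, was the most abundant P450. Its level in PT-like cells was 1627, 1651, 1625 and 1715 CPM at 0, 1, 4 and 12 h, and the libraries differed little. PT-S2/S3-like cells held 2304, 2314, 2413 and 2428 CPM. In PT-S1-like cells the level was 365, 504, 621 and 762 CPM, a log2 ratio to 0 h of 1.06 at 12 h (95% counting interval 1.03 to 1.10), so every treated library was above 0 h. Of 9 alternative settings 3 gave less than 2-fold at 12 h (range 0.73 to 1.87). Male-called PT-S1-like cells had 566, 751, 906 and 1247 CPM and female-called ones 73.6, 98.5, 193 and 258 CPM. Both sexes were thus higher at 12 h, by 1.14 and 1.81 on the log2 scale. In PT-S2/S3-like cells Cyp4b1 was higher in male-called cells by a log2 ratio of 3.15 ± 0.30 (SD, n = 4 libraries), in 4 of 4 libraries.

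Cyp4a14, a fatty acid omega-hydroxylase and a known target of the receptor PPAR-alpha, was at 63.2, 83.5, 109 and 84.8 CPM in PT-like cells. Female-called PT-S2/S3-like cells held 514, 515, 678 and 463 CPM and male-called ones 5.29, 8.63, 38.3 and 34.6 CPM, with no overlap between the sexes. The mean log2 ratio of male to female was -5.10 ± 1.37 (SD, n = 4 libraries). In male-called cells the 4 h and 12 h libraries stood above the 0 h and 1 h ones, with log2 ratios to 0 h of 2.86 (2.62 to 3.1) and 2.71 (2.47 to 2.96). Female-called cells gave 0.40 and -0.15 at the same times. The male-called level rests on 169, 247, 971 and 695 UMIs, and the part of RNA from other cells of the pool was not tested. For scale, female-called cells of this segment held 1.91 to 5.46 CPM of the male-high gene Cyp2j13, against 199 to 230.2 CPM in male-called cells. In PT-S1-like cells Cyp4a14 was at 7.2, 10.8, 19.8 and 14.9 CPM, or 1.46 (1.21 to 1.72) above 0 h at 4 h and 1.05 (0.77 to 1.32) at 12 h. Alternative settings put the later ratio under 2-fold in 8 of 9 cases and the earlier one in 3. PT-S3-like cells had 34, 48, 242 and 50 UMIs, or 6.97, 18.1, 48.4 and 15.0 CPM.

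Cyp4a12a, which makes 20-HETE, a vasoconstrictor lipid, and is known as a male-biased gene of mouse kidney, was at 38.3, 29.5, 30.8 and 11.8 CPM in PT-like cells. The 12 h library was the lowest, with a log2 ratio of -1.70 (-1.81 to -1.60). In male-called PT-S2/S3-like cells it was at 68.0, 59.7, 63.0 and 24.0 CPM, so that the 12 h value was lower by -1.50 (-1.65 to -1.36) within 1 sex and segment. Female-called cells had 3.99, 1.01, 1.75 and 0.811 CPM, and the sex ratio was 5.01 ± 0.74 (SD, n = 4 libraries) on the log2 scale. PT-S1-like cells went from 12.6 CPM at 0 h to 4.81 CPM at 12 h (-1.39), and PT-S3-like cells held 65, 9, 120 and 1 UMIs. Its neighbour Cyp4a12b shares 59.7% of the 3′ sequence words of its transcripts with other genes, and 58.8% of those of Cyp4a12a are shared, so reads could be split between them. Cyp4a12b was at 4.40, 4.40, 8.10 and 6.08 CPM in PT-like cells. Its 4 h log2 ratio within the S1-like segment was 1.27 (0.82 to 1.73).

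Cyp4a10 and Cyp4a31, 2 further omega-hydroxylases of chromosome 4 with 18.5% of 3′ words shared, differed from 0 h by less than 2-fold in every segment. Cyp4a10 was at 126, 126, 147 and 153 CPM in PT-like cells. It was higher in female-called PT-S2/S3-like cells, 482, 435, 578 and 455 CPM against 98.9, 96.8, 116 and 158 CPM in male-called ones, with a log2 ratio of -2.07 ± 0.37 (SD, n = 4 libraries). Cyp4a31 was at 106, 109.9, 107 and 99.1 CPM in PT-like cells. Its sex ratio of -0.82 ± 0.21 did not reach 2-fold. Cyp4f13, a hydroxylase of leukotrienes and fatty acids, was nearly even across the 3 segments at 16.3, 21.7 and 22.7 CPM (pooled). The other Cyp4 members were low in the proximal tubule: Cyp4f14, Cyp4f16 and Cyp4f17 were each under 6 CPM (pooled) in all 3 segments, and Cyp4a32 and Cyp4x1 had 7, 3, 5 and 6 and 2, 2, 4 and 1 UMIs in PT-like cells.

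**Figure D4:**
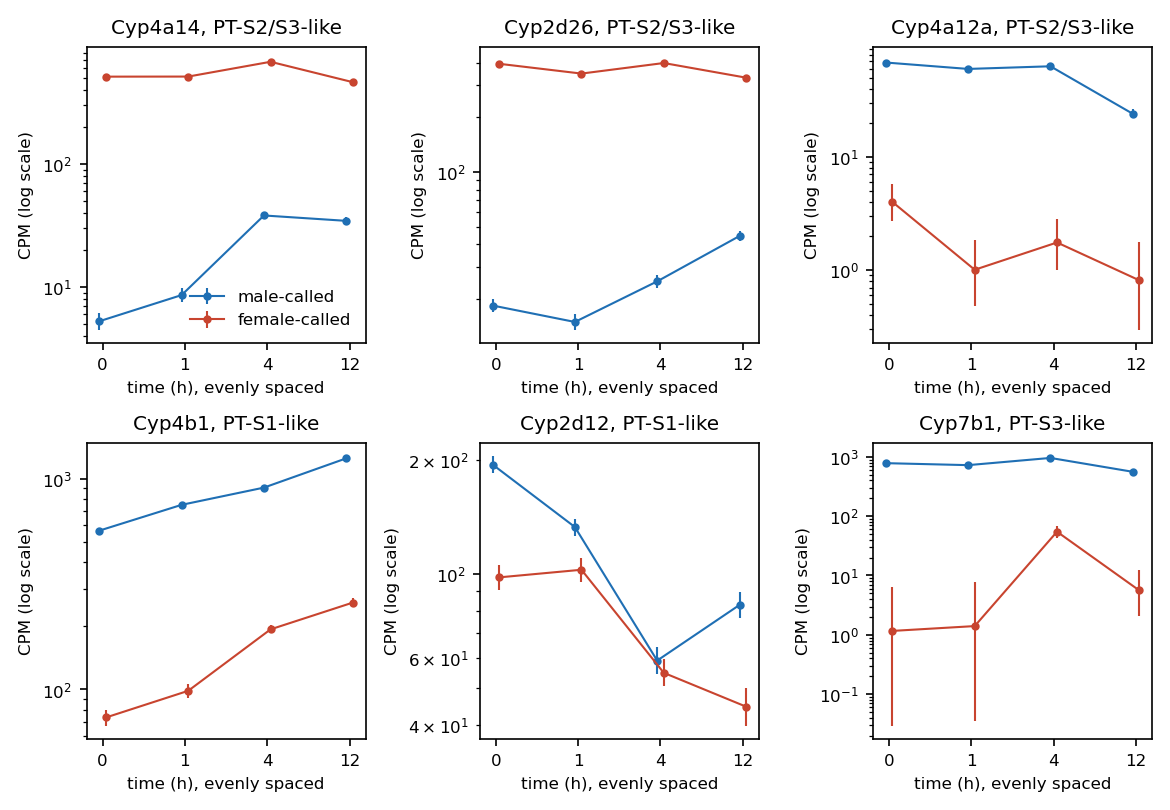
CPM (log axis) in male-called and female-called cells at 0, 1, 4 and 12 h (evenly spaced, not to time scale) for 6 P450 genes in the segment named above each panel, with exact Poisson 95% intervals. Male-called Cyp4a14 goes from 5.29 to 34.6 CPM, Cyp4a12a is lowest at 12 h, Cyp4b1 in PT-S1-like cells is higher at each later time in both sexes, and female-called Cyp7b1 rests on 1, 1, 74 and 6 UMIs.

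Of the 11 epoxygenase members (Cyp2c and Cyp2j), none was 2-fold from 0 h in the whole PT-like class. Cyp2j5, an arachidonic acid epoxygenase abundant in mouse kidney, was the second most abundant P450 at 668, 672, 624 and 583 CPM in PT-like cells. The 12 h library was the lowest, by -0.20 (-0.21 to -0.18). All 3 segments held it, at pooled levels of 458, 738 and 667 CPM, and the sex ratio in PT-S2/S3-like cells was 0.26 ± 0.11 (SD, n = 4 libraries). Cyp2j13, a close relative, was at 118, 121, 105 and 96.9 CPM in PT-like cells. Male-called PT-S2/S3-like cells held 205, 230.2, 215 and 199 CPM and female-called ones 5.46, 1.91, 3.50 and 3.79 CPM, the widest sex ratio of the family in that segment at 5.95 ± 0.71. Cyp2j11 was at 100.1, 94.1, 105 and 102 CPM and leaned the other way, with a sex ratio of -0.87 ± 0.16. Cyp2c23, the main arachidonic acid epoxygenase of rat kidney, was at 32.4, 37.9, 21.6 and 33.6 CPM, lowest at 4 h (-0.59, -0.67 to -0.51). It was higher in female-called PT-S2/S3-like cells, 121, 109.7, 60.8 and 89.8 CPM against 14.4, 15.9, 11.3 and 21.1 CPM. PT-S1-like cells held 92.5% of the PT-like UMIs of Cyp2c68 and 71.4% of those of Cyp2c69, at 1.30 and 2.19 CPM (pooled). Their transcripts share 77.1% and 55.0% of 3′ words with other genes, so their reads are uncertain. Cyp2c69 was the 1 epoxygenase past 2-fold in a proximal segment, at 65, 81, 43 and 41 UMIs in PT-S1-like cells (-1.16 at 4 h, -1.75 to -0.58). Cyp2j9 was at 7.72 CPM in PT-S1-like cells and Cyp2j7 at 1.34 CPM in PT-S2/S3-like cells (pooled), and Cyp2j8 and Cyp2c38 had 71 and 32 UMIs in all.

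The 12 members of xenobiotic families included Cyp2e1, an ethanol and solvent oxidase. Its level in PT-like cells was 583, 528, 352 and 322 CPM, lower in each later library, with a log2 ratio of -0.73 (-0.75 to -0.71) at 4 h and -0.86 (-0.88 to -0.84) at 12 h. PT-S2/S3-like cells held 91.6% of its PT-like UMIs. Male-called PT-S2/S3-like cells had 1099, 1087, 799.6 and 751 CPM and female-called ones 131, 108, 77.1 and 43.5 CPM, so both sexes were lower at 4 and 12 h, with log2 ratios of -0.55 and -1.59 at 12 h. The sex ratio was 3.47 ± 0.44 (SD, n = 4 libraries). Of its 3′ words 29.2% are shared with other genes, mostly Gm48610.

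Cyp2a4, a steroid 15-alpha-hydroxylase, and Cyp2a5, a coumarin 7-hydroxylase, both lie on chromosome 7 and have closely similar proteins and different segment patterns. Their promoters are shown because the 2 genes differ in level while the 250 bases before each start are almost the same. The stretches are from RefSeq (build GRCm38.p6, plus strand), and capitals mark the bases that differ. Cyp2a4 lies at chr7:26306942-26307191 and Cyp2a5 at chr7:26835089-26835338.
Cyp2a4: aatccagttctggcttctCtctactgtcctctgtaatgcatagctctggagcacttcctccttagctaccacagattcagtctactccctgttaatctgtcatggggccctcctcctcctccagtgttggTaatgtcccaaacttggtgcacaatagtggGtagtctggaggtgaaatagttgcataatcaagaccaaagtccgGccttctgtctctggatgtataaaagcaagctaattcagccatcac
Cyp2a5: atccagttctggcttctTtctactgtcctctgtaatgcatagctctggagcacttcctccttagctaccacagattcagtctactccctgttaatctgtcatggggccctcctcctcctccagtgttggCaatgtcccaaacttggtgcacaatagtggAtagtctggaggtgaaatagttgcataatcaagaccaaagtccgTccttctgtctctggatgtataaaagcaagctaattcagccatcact
Over 249 aligned bases 4 differ, C19T, T131C, G161A and G205T from Cyp2a4 to Cyp2a5, counted from 1 at the 5′ end of the Cyp2a4 stretch, an identity of 98.4%. Cyp2a4 was at 632, 691, 485 and 737 CPM in PT-S3-like cells, 149, 162, 124 and 209 CPM in PT-S2/S3-like cells and 7.61, 8.66, 3.69 and 6.38 CPM in PT-S1-like cells. Cyp2a5 was at 2.67, 11.0, 5.6 and 9.01 CPM in PT-S3-like cells, on 13, 29, 28 and 30 UMIs, and at 77.9, 86.8, 48.2 and 108 CPM in PT-S2/S3-like cells. The log2 ratio of PT-S3-like to PT-S2/S3-like cells was 1.99 ± 0.13 for Cyp2a4 and -3.63 ± 0.86 for Cyp2a5 (SD, n = 4 libraries). Reads of the pair are hard to tell apart, since 70.8% of the 3′ words of Cyp2a4 and 25.6% of those of Cyp2a5 occur in other genes. Both were lowest at 4 h in PT-S2/S3-like cells. Cyp2a4 was higher in male-called than in female-called PT-S2/S3-like cells (3.25 ± 0.42), while in PT-S3-like cells the sexes held 415 to 905 and 524 to 659.7 CPM and overlapped.

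The Cyp2d genes, relatives of the human debrisoquine hydroxylase, lie together on chromosome 15 and split by sex and segment. Cyp2d26 was the main one, at 143, 153, 192 and 167 CPM in PT-like cells, with 53.6% of its PT-like UMIs in PT-S1-like cells. There it was at 307, 278, 330.4 and 271 CPM, while in PT-S2/S3-like cells it was at 81.2, 93.0, 106 and 106 CPM. Female-called PT-S2/S3-like cells held 394, 348, 398 and 330.4 CPM and male-called ones 18.5, 15.0, 25.1 and 44.5 CPM, a sex ratio of -3.96 ± 0.75 (SD, n = 4 libraries). The male-called 12 h value was higher than at 0 h by 1.27 (1.12 to 1.42). With libraries pooled, male-called cells held 78.6 and 87.7 CPM in clusters 9 and 20 and 10.1 to 13.1 CPM in clusters 2, 4 and 12. From 0 to 12 h, clusters 2 and 12 went from 901 and 550 cells to 494 and 201. Clusters 9 and 20 went from 362 and 186 cells to 307 and 189. The part of this shift in the 12 h ratio was not tested. In PT-S1-like cells the sex ratio of Cyp2d26 was -0.64 ± 0.18. PT-S3-like cells held 13.7, 22.7, 32.8 and 24.9 CPM on 67, 60, 164 and 83 UMIs, and the 4 h ratio of 1.25 (0.84 to 1.69) was under 2-fold in 3 of 9 alternative settings.

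Cyp2d9, a testosterone 16-alpha-hydroxylase known as male-specific in mouse liver, had the opposite pattern. It was at 81.1, 55.2, 42.3 and 47.1 CPM in PT-like cells, highest at 0 h. Male-called PT-S2/S3-like cells held 139, 114, 92.0 and 103 CPM and female-called ones 6.39, 3.22, 4.60 and 1.89 CPM, a sex ratio of 4.92 ± 0.67. The promoters of these 2 Cyp2d genes are shown because their levels split by sex in opposite directions in the same cells. They are the 250 bases before each start (RefSeq, build GRCm38.p6), Cyp2d9 at chr15:82452127-82452376 on the plus strand and Cyp2d26 at chr15:82794246-82794495 on the minus strand. Starts differ between annotations. GENCODE places Cyp2d9 at chr15:82433437-82456845, so the stretch shown lies inside that span. The other stretches shown in this report overlap their GENCODE spans in part. In Cyp2d9 the first capitals mark a direct repeat of the letters AGGNCA with 1 base between the copies, the kind bound by HNF4 and PPAR receptors, and in Cyp2d26 the 13-base window closest to it. The last capitals mark TTTATA, which is TATAAA read on the other strand.
Cyp2d9: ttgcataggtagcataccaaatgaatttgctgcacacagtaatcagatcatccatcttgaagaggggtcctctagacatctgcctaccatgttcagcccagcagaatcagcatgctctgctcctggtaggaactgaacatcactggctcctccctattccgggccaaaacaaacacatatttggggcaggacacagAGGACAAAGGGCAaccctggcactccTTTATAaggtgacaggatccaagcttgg
Cyp2d26: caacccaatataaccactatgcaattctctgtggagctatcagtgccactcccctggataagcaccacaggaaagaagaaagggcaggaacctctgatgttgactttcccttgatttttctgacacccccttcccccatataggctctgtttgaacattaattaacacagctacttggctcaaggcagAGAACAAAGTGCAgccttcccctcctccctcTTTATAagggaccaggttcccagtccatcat
The window of Cyp2d26 differs from the repeat of Cyp2d9 by G3A and G10T, counted from 1 at the 5′ end of the repeat. The repeat letters were searched on both strands and occur in 0.338% of 32851 promoters of this length, and in 1 of the 37 members with a promoter in the table. TATAAA on either strand occurs in 12.4% of promoters and in 11 of the 37 members. A match is a description of letters and not a site.

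Cyp2d12 was at 84.7, 73.2, 55.5 and 53.6 CPM in PT-like cells. In PT-S1-like cells its level was 131, 103, 55.3 and 52.9 CPM, with log2 ratios of -1.25 (-1.33 to -1.16) at 4 h and -1.31 (-1.41 to -1.22) at 12 h. Male-called PT-S1-like cells held 195, 133, 59.0 and 82.8 CPM and female-called ones 98.0, 103, 54.8 and 44.6 CPM, so both sexes were lower at 4 and 12 h than at 0 h. Of 9 alternative settings 2 gave less than 2-fold at 4 h (range -1.66 to -0.20). In PT-S3-like cells Cyp2d12 had 15, 62, 44 and 4 UMIs. Cyp2d22 was at 8.86, 10.7, 11.9 and 9.57 CPM in PT-like cells. Female-called PT-S2/S3-like cells held more of it than male-called ones, 31 to 34.7 CPM against 2.35 to 4.83 CPM. Its highest class was not tubular but endothelial-like. Cyp2f2, a naphthalene oxidase of lung airway cells, was at 2.75, 3.39, 1.15 and 3.07 CPM in PT-S1-like cells (-1.26 at 4 h, on 37 UMIs). Cyp2b10, Cyp3a13 and Cyp1b1 had 113, 153 and 217 UMIs in all, highest in PT-S2/S3-like, IC-like and endothelial-like cells in that order.

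Of the 7 steroid, bile acid and sterol members, Cyp7b1 and Cyp51 were highest in PT-S3-like cells. Cyp7b1 was at 33.8, 10.6, 26.4 and 12.1 CPM in PT-like cells, with log2 ratios of -1.67, -0.35 and -1.48. PT-S3-like cells held 97.0% of its PT-like UMIs and were themselves fewest at 1 and 12 h. Within PT-S3-like cells the level was 594, 349, 499 and 275 CPM, so the 1 h difference was -0.77 (-0.88 to -0.66) and the 12 h difference -1.11 (-1.22 to -1.0). The female share of sex-called PT-S3-like cells was 44.4%, 63.6%, 59.4% and 67.2%. Male-called PT-S3-like cells held 782, 725, 958 and 559.6 CPM, or -0.11 (-0.26 to 0.04), 0.29 (0.18 to 0.40) and -0.48 (-0.64 to -0.33) against 0 h. Female-called ones held 1, 1, 74 and 6 UMIs. Weighting segment and sex as at 0 h gave -0.37 at 1 h in PT-like cells in place of -1.67.

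Cyp51 was at 84.6, 72.7, 78.9 and 54.3 CPM in PT-like cells, lowest at 12 h (-0.64, -0.69 to -0.59). In PT-S3-like cells it was nearly level, at 437, 464, 429 and 461 CPM, and in PT-S2/S3-like cells it was at 79.0, 75.1, 80.9 and 46.4 CPM. Both sexes held it, at 353 to 422 CPM in male-called and 554 to 646 CPM in female-called PT-S3-like cells. Its promoter is shown for the later result in distal tubule cells, where other sterol synthesis genes were higher at the same time. The 250 bases before its start (RefSeq, build GRCm38.p6, chr5:4104698-4104947, minus strand) hold TCACCTCAG, letters of a sterol response element, and CCAAT, both in capitals.
Cyp51: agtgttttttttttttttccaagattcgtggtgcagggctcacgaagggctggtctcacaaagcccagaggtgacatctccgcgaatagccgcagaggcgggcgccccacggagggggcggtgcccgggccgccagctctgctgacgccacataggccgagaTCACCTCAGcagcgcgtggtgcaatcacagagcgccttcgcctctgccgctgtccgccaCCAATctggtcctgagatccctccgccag
Searched on both strands, TCACCTCAG occurs in 0.295% of 32851 promoters and in 1 of the 37 members, and CCAAT in 33.8% of promoters and 17 of the 37 members. A match is again a description of letters, and its part in any level of Cyp51 was not tested. Cyp27a1, the sterol 27-hydroxylase of mitochondria, was at 24.9 CPM in PT-S1-like, 17.7 CPM in PT-S2/S3-like and 9.02 CPM in PT-S3-like cells (pooled). Cyp39a1, an oxysterol 7-alpha-hydroxylase, was at 1.10, 0.40 and 2.27 CPM in the 3 segments. In principal cell-like cells Cyp39a1 was at 25.2 CPM. Cyp46a1 had 127 UMIs and Cyp17a1 46 in all, both highest in TAL-like cells, and 39 of the 42 UMIs of Cyp8b1 were in macrophage-like cells.

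Low members account for the other calls. Cyp2s1, which can metabolise retinoids and lipid peroxides, had 44, 62, 113 and 140 UMIs in PT-like cells, or 0.505, 0.691, 1.16 and 1.74 CPM, with log2 ratios of 1.20 (0.68 to 1.74) at 4 h and 1.78 (1.28 to 2.31) at 12 h. Of 10 alternative settings 3 gave less than 2-fold at 4 h and none did at 12 h. IC-like cells held it at 77 to 105 CPM, and the 7 intercalated cell markers summed to 2.14 to 2.95 CPM in PT-like cells. Cyp26a1, a retinoic acid hydroxylase, had 17, 19, 35 and 33 UMIs in PT-like cells (1.07 at 12 h, 0.18 to 2.01), a ratio under 2-fold in 6 of 10 alternative settings. Cyp20a1, Cyp2u1 and the vitamin D 25-hydroxylase Cyp2r1 were at most 10.5 CPM in any proximal segment (pooled) and differed by less than 2-fold, and Cyp2ab1 had 36 UMIs in all, 24 of them in macrophage-like cells.

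In other kidney cells, the members described first were those whose level relative to PT-like cells was at least 3 times that of proximal tubule reference genes, which gauge tubule RNA in those barcodes. Members below that level are named where they passed 2-fold. Cyp2e1 was 2-fold lower in TAL-like cells at 1, 4 and 12 h (0.176%, 0.998% and 0.376% of all genes). Cyp4b1 was higher in stromal-like cells at each later time (7.69%, 9.15% and 10.1%), on 7, 89, 33 and 31 UMIs. It was lower in neutrophil-like cells at 1 and 4 h (2.65% and 5.47%). B-like cells had it lower at 4 and 12 h (4.69% and 2.61%). In T and NK cell-like cells Cyp4b1 and Cyp2e1 were lower at 4 h (2.19%). The part of tubule RNA in these calls was not tested. The median level of 13 reference genes was 1.25% to 6.10% of that in PT-like cells in the other classes, except 17% in stromal-like cells. Distal tubule cells (DCT/CNT-like) held Cyp51 at 32.7, 51.3, 101 and 52.5 CPM, on 153, 280, 732 and 317 UMIs. The 4 h library was the highest, with a log2 ratio of 1.62 (1.37 to 1.88). It was 1 of 15 members past 2-fold higher at 4 h, where 2.6% of 9319 genes were, while Cyp2j5 and Cyp2e1 were 2-fold lower at 4 h, as were 2.92% of all genes. Both were also lower at 12 h (1.83% of all genes) and Cyp2e1 at 1 h (0.515%), at levels of at most 15.6 CPM in this class. Neither reached 3 times the reference level here, and the part of proximal tubule RNA in these values was not tested. The class is made of 2 clusters. In cluster 13, led by the thiazide-sensitive transporter gene Slc12a3 and Pvalb, Cyp51 was at 40.2, 69.3, 148 and 74.5 CPM (1.88 at 4 h), and in cluster 16, led by S100g and Calb1, it was at 12.1, 13.2, 11.2 and 16.3 CPM (-0.11 at 4 h). Both sexes were higher at 4 h, with ratios of 1.80 (male-called) and 1.36 (female-called).

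Other sterol synthesis genes were also higher at 4 h in this class, in cluster 13 and not in cluster 16. Of 15 genes with 100 or more UMIs, all 15 were above 0 h at 4 h and 10 were 2-fold or more higher, with a median of 1.34 beside -0.05 over all genes. In cluster 13 the median was 1.53 with 15 of 15 genes above 0 h, and in cluster 16 it was -0.12 with 3 of 8 above 0 h and none 2-fold higher. Sqle, the squalene epoxidase of cholesterol synthesis, had a log2 ratio of 1.69 at 4 h, and Insig1, a sterol-regulated protein of the endoplasmic reticulum, 1.74. In PT-like cells the same list had medians of 0.02, 0.02 and -0.12, and 1 of 16 genes, Idi1, was 2-fold lower at 12 h. The list was applied to this class after the value of Cyp51 was seen.

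DCT/CNT-like cells held the epoxygenase gene Cyp2j11 at 95.2, 118, 164 and 152 CPM (0.78 at 4 h, 0.63 to 0.94), and it was higher at 4 h in both clusters, by 0.82 and 0.54. In principal cell-like cells it had 16, 13, 63 and 57 UMIs and was the 1 of 8 members past 2-fold higher, at 4 h (1.10; 1.49% of 6785 genes) and at 12 h (1.67; 0.575%). Cyp4b1 was 2-fold lower there at 1 h, as were 0.987% of all genes, and no member was lower at 4 h (0.914%). Cyp2j6 was at 117 to 128 CPM in DCT/CNT-like, 60.9 to 73.9 CPM in TAL-like and 55.9 to 62.1 CPM in IC-like cells, with no library apart. Principal cell-like cells also held Cyp7b1, at 71.5, 84.0, 97.5 and 69.5 CPM on 88, 74, 221 and 96 UMIs, all within 2-fold of 0 h. TAL-like cells held Cyp2u1, a fatty acid hydroxylase, at 30.1 to 33.4 CPM.

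IC-like cells held 343 of the 490 UMIs of Cyp1a1, the classic target of the aryl hydrocarbon receptor. It was at 27.4, 32.3, 63.5 and 35.5 CPM on 32, 56, 184 and 71 UMIs, highest at 4 h (1.21, 0.67 to 1.80). It was the only 1 of 11 members 2-fold higher there at 4 h, as were 1.75% of 6855 genes. Cyp4b1 was 2-fold lower in this class at 1 h (0.875% of all genes), and Cyp4b1 and Cyp2j5 at 4 h (1.53%). Male-called and female-called cells gave 1.08 and 1.34 at 4 h. None of the 5 genes of the aryl hydrocarbon receptor target list reached 100 UMIs in this class. Cyp2u1 was at 39.4, 30.0, 41.0 and 17.5 CPM in IC-like cells, 2-fold lower at 12 h (-1.17), as were 1.21% of all genes.

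Endothelial-like cells held Cyp26b1, which clears retinoic acid, at 269, 302, 34.1 and 121 CPM on 207, 256, 46 and 202 UMIs. The 4 h library stood apart as the lowest, with a log2 ratio of -2.98 (-3.48 to -2.51), and 12 h was lower by -1.15 (-1.44 to -0.87). It was 1 of 4 members past 2-fold lower at 4 h and at 12 h, as were 1% and 0.762% of 6302 genes. No member passed 2-fold at 1 h, where 0.968% of all genes were higher and 0.555% lower. Female-called endothelial-like cells held 461, 329, 52.4 and 37.8 CPM and male-called ones 127, 313, 18.2 and 143 CPM, so the 4 h value was the lowest or next to it in both sexes. At 1 and 12 h the male-called value was above 0 h and the female-called one below it, so the lower 12 h level was not shared by the sexes. An unnamed cluster led by Cldn5, Sox17 and Gja4 held 96.5, 82.5, 15.9 and 3.51 CPM. Other endothelial members were steady: Cyp4b1 was at 218 to 278 CPM, Cyp20a1 at 210.0 to 237 CPM and Cyp2d22 at 93.3 to 128 CPM.

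**Figure D5:**
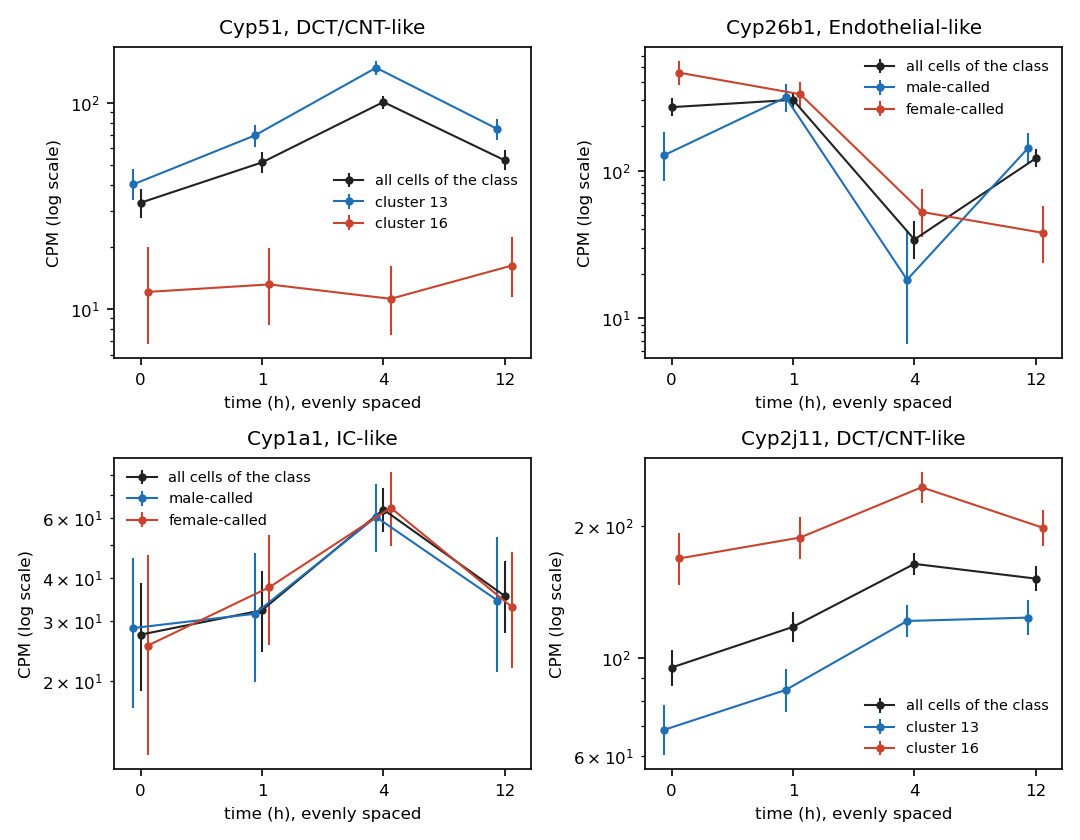
CPM (log axis) at 0, 1, 4 and 12 h (evenly spaced, not to time scale) of Cyp51 and Cyp2j11 in DCT/CNT-like cells with their 2 clusters, and of Cyp26b1 in endothelial-like and Cyp1a1 in IC-like cells by called sex, with exact Poisson 95% intervals. Cyp51 peaks at 148 CPM at 4 h in cluster 13 and stays between 11.2 and 16.3 CPM in cluster 16, Cyp1a1 is highest at 4 h in both sexes, and Cyp26b1 is lower at 4 h than at 0 h in both sexes.

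Among immune cells, Cyp4f18, which inactivates the neutrophil attractant leukotriene B4, was at 575, 696, 434 and 908 CPM in neutrophil-like cells, which numbered 353, 324, 77 and 56. Macrophage-like cells held it at 121 to 185 CPM and B-like cells at 89.5 to 139 CPM. Cyp27a1 in macrophage-like cells was at 70.4, 61, 31 and 62.5 CPM, lowest at 4 h on 18 UMIs (-1.19, -2.00 to -0.44), where 3.25% of 4650 genes were 2-fold lower, Cyp51 among them. Cyp4b1 was lower at 1 h, as were 1.83% of all genes. Cyp4f16 there was at 23.7, 46.9, 25.8 and 54.3 CPM, 2-fold higher at 12 h (1.19), as were 1.01% of all genes. Cyp4f15 was found mainly in urothelial-like cells, at 123, 122, 54.3 and 29.9 CPM on 23, 130, 24 and 11 UMIs from 10, 41, 26 and 23 cells. It was 2-fold lower at 4 and 12 h, as were 2.77% and 6.48% of all genes tested there, and within 2-fold at 1 h, where 3.31% were higher and 2.26% lower (4.99% were higher at 4 h). Cyp4v3 was also highest in these cells, at 20.4 CPM (pooled).

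The genes that serve or control P450s were read from lists, as log2 ratios in PT-like cells. Of 13 partner genes, Por, the electron donor of microsomal P450s, was at 118, 115, 116 and 146 CPM, and the list medians were -0.02, 0.07 and 0.08. Hmox1, which degrades heme and is a stress response gene, was the 1 partner past 2-fold, at 65.3, 179, 449 and 26.8 CPM (1.45, 2.78 and -1.28). Of 16 regulators the medians were 0.08, -0.01 and -0.03. Bcl6, a repressor known to act on sex-biased liver genes, was at 12.0, 31.5, 23.4 and 3.92 CPM (1.39 at 1 h and -1.61 at 12 h), and Esr1, an estrogen receptor, was lower at 4 h (-1.08). Hnf4a differed by less than 2-fold. In the list of 14 PPAR-alpha targets, Plin2 was 2-fold higher at 4 h (1.04) and Angptl4 lower (-1.69), and at 12 h Angptl4 (-1.66) and Pdk4 (-2.01) were lower. All 7 genes of a male-biased kidney list were below 0 h at 12 h, with a median of -1.02, and 4 were 2-fold lower (Slco1a1 -1.79, Acsm3 -1.47, Slc7a13 -1.07 and Slc22a28 -1.02), where 1.84% of all genes were. In male-called PT-like cells alone the median was -0.85, Slco1a1 went from 450.1 to 145 CPM, and Slc7a13 from 809 to 443 CPM, which is under 2-fold. The 6 genes of the female-biased list had medians of -0.15, 0.18 and 0.02, with Slc22a7 2-fold lower at 1 h (-1.04). Of 3 aryl hydrocarbon receptor targets with 100 or more UMIs, Nqo1 was 2-fold higher at 12 h (1.06).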

How the data were processed

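Single-cell RNA libraries (10x 3′, version 3 chemistry per the labels) were deposited by the authors as raw UMI counts per gene and barcode. The submitters' processing notes name the mm10 build, Cell Ranger 3.1.0, STAR and Seurat. Barcodes with at least 300 genes and at most 50% mitochondrial UMIs were kept, and doublets were called from simulated pairs with 30 neighbours at a rate that grew with the barcode number, which removed 7.59% to 8.89% of barcodes. Clusters (scanpy 1.11.5, leidenalg 0.10.2, 30 components, 20 neighbours, resolution 1.5) were built without P450, sex-biased, mitochondrial, ribosomal, hemoglobin and early-response genes and named from marker lists. Names are rebuilt and may differ from those of the study. Pairs of libraries shared 36 to 57 barcodes, at most 0.466% of the smaller.

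For each class in each library, UMIs were added over cells and scaled by the class total (CPM). Poisson intervals for levels and conditional binomial intervals for ratios are exact, at 95%, and cover counting error only. With 1 library per group no test was run. The ratio and interval code was tested on simulated data. Sex was called from Xist against Ddx3y, Eif2s3y, Uty and Kdm5d, and the Malat1 limit of 2000 CPM was set after seeing the data. Genes named in PT-like cells were the 12 most abundant and those 2-fold from 0 h with 100 or more UMIs, and in other classes up to 3 per class at least 3 times the tubule reference median. Other members named were chosen after their values were seen. Positions and 3′ sharing used GENCODE vM21, which held 99.6% of gene IDs. RefSeq held promoters of 37 of the 52 members. Members and lists were chosen with earlier results of these data known. Some genes of the lists are not reported here.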

Additional observations from a re-analysis of the deposited data

Results flagged for a closer look

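The 5 cases below are within proximal segments. In each, the log2 ratio to 0 h had opposite signs in male-called and female-called cells, with counting intervals on opposite sides of 0. The ratio of 1 sex was also 2-fold or more from 0 h. Cases with smaller ratios in both sexes, such as Cyp2c23 in PT-S2/S3-like cells at 12 h, are not listed. The share of all genes is not given. The difference between the sexes was not tested, since each time is 1 library. Cyp4a14 in PT-S2/S3-like cells at 12 h had a male-called ratio of 2.71 (2.47 to 2.96) and a female-called ratio of -0.15 (-0.22 to -0.08). Cyp2d26 in PT-S2/S3-like cells at 12 h had ratios of 1.27 (1.12 to 1.42) and -0.25 (-0.33 to -0.18), given in the same order. The shift in the clusters of this class, given above for Cyp2d26, was not separated from these ratios. Cyp4a10 in PT-S3-like cells at 1 h was at -0.55 (-0.85 to -0.25) and 1.18 (0.86 to 1.51). Cyp2j13 was at 0.17 (0.12 to 0.22) and -1.51 (-2.38 to -0.70) in PT-S2/S3-like cells at 1 h, and at 0.18 (0.02 to 0.35) and -1.20 (-2.38 to -0.06) in PT-S1-like cells at 4 h, where female-called cells held few UMIs of it.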

How the results depend on the processing

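No paired analysis was possible because each time is 1 library, which holds for the comparisons over time; male-called and female-called cells were compared within each library. In PT-like cells the counts of members 2-fold lower and higher were 1 and 0 at 1 h, 0 and 1 at 4 h and 2 and 2 at 12 h. With no UMI minimum 5, 2 and 5 members were lower at 1, 4 and 12 h, and with a minimum of 20 UMIs 4, 1 and 4. At 1.5-fold 4 were higher and 6 lower at 4 h, and 7 lower at 12 h. The share of all genes is not given at these looser limits or under the settings that follow. The counts therefore do not set members against other genes. Weighting segment and sex as at 0 h left 0 lower at 1 h, 1 lower at 4 h, and 1 higher and 1 lower at 12 h. In male-called cells 3 were higher and 1 lower at 4 h. Cells weighted equally gave 0 higher at 4 h and 1 at 12 h. A mitochondrial limit of 25% or keeping doublet calls gave 1 higher at 12 h. Barcodes with Malat1 gave 1 lower at 4 h and 1 higher at 12 h, and those without it 0 higher at both times; both were chosen after seeing the data.

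Many more ratios over time were counted as moved than as reversed. In female-called cells 140 moved, 3 reversed and 58 stayed the same. In male-called cells the counts were 116, 2 and 86, and with the 25% mitochondrial limit 103, 4 and 97. Weighting segment and sex as at 0 h moved 46 and left 17 the same. Ratios that reversed were as follows, and the cause was not tested. In female-called cells Cyp7b1 at 12 h was at 0.48 in PT-like and 2.36 in PT-S3-like cells, and Cyp2d9 in PT-S1-like cells at 12 h at 0.23. Without Malat1, Cyp26a1 at 12 h in PT-like cells was at -0.36. In PT-S3-like cells Cyp4a14 at 1 h was at -1.21 with the 25% limit and -0.033 without Malat1. Cyp2d12 there was at -0.038, -0.74 and -1.59 at 1 h (25% limit, male-called, without Malat1), -3.01 and -0.91 at 4 h (25% limit, without Malat1), and 3.25, 1.16, 0.93 and 0.49 at 12 h (25% limit, doublets kept, male-called, equal cells). Cyp4a12a in PT-like cells at 12 h stayed between -1.74 and -1.43 in 10 settings. Size factors moved the median of all genes by at most 0.05 on the log2 scale.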
